A study of Mus musculus with 12 samples.

Results

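The respiratory chain and ATP synthase genes were taken as all genes whose symbol starts with Nduf, Uqcr, Cox4, Cox5, Cox6, Cox7, Cox8 or Atp5 in the probe annotation of the array, which gave 83 of 19057 genes. Total RNA came from hearts of mouse embryos (Mus musculus) taken on embryonic days 9 and 10, called E9 and E10 here. At each age 2 pieces were dissected, the atrioventricular canal (AVC), where the valve cushions arise, and the primary ventricle (labelled LV). The 4 groups, AVC E9, AVC E10, LV E9 and LV E10, had 3 arrays each. No treatment or allele is named for any group. Neither the strain nor the origin of the 3 replicates (litters or pools) is given in the sources used, so the p-values cover the spread among these arrays, part of which may be technical. Each dissected piece held several cell types, so fewer cells of a type and less RNA per cell cannot be told apart.

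Complexes I, III and IV of the inner mitochondrial membrane pass electrons from NADH to oxygen and pump protons, and ATP synthase uses the proton gradient to make ATP. All 83 genes are nuclear genes. Nduf genes encode subunits of complex I (NADH dehydrogenase) or, with the prefix Ndufaf, its assembly factors. Uqcr genes encode complex III, Cox genes encode complex IV (cytochrome c oxidase), and Atp5 genes encode ATP synthase. A few complex IV subunits exist in a common form and in a form of heart and skeletal muscle, and the muscle forms Cox6a2, Cox7a1 and Cox8b are known to become prominent in the heart as it matures.

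Each gene was represented by its brightest probe. Values are intensities, the background-subtracted brightness of a probe on a linear scale, and differences were tested on log2 intensity with limma. The threshold for a call was an adjusted p of 0.05 over all 19057 genes. A value was above background when it exceeded the size of the most negative value on its array, a limit of 22.4 to 29.6. On all 12 arrays, 76 of the 83 genes exceeded background, as did 8340 of the 19057. Cox8b was above background on 11 arrays, Cox4i2 on 7 and Uqcrfs1, the Rieske iron-sulfur protein of complex III, on 2. The probes of Ndufs1, the largest core subunit of complex I, and of Cox7b2, Cox8c and Ndufaf6 were not well above background on any array, so these genes gave no level here. Medians, counts by direction and the highest or lowest value of a complex are over the 76 genes.

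Arrays of the same group differed in these genes. For each array, the deviation of every gene from its own mean over the 12 arrays was taken, and the median over the 76 genes is given on the log2 scale. It was -0.31 on LV E10 replicate 1 and 0.46 and 0.52 on LV E10 replicates 2 and 3. It was -0.23, -0.25 and -0.23 on the LV E9 arrays and 0.06, 0.09 and 0.07 on the AVC E10 arrays. On AVC E9 it was -0.16, 0.22 and -0.23, with replicate 2 high. Pooled over the 4 groups, the SD of this median over replicates was 0.29. Many of these genes shifted together on an array, so counts of genes by direction are not independent observations. LV E10 replicate 1 was below both other LV E10 arrays for 72 of the 76 genes (94.7%), against 41.6% of the 8340 genes. AVC E9 replicate 2 was above both other AVC E9 arrays for 69 of the 76 (90.8%), against 27.5%. LV E10 replicate 1 and AVC E9 replicate 2 stood apart, and results are given with and without them. Leaving them out was chosen after their values in these same genes were seen. Counts without them are therefore tilted toward these genes and are no test against all genes.

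**Figure D1:**
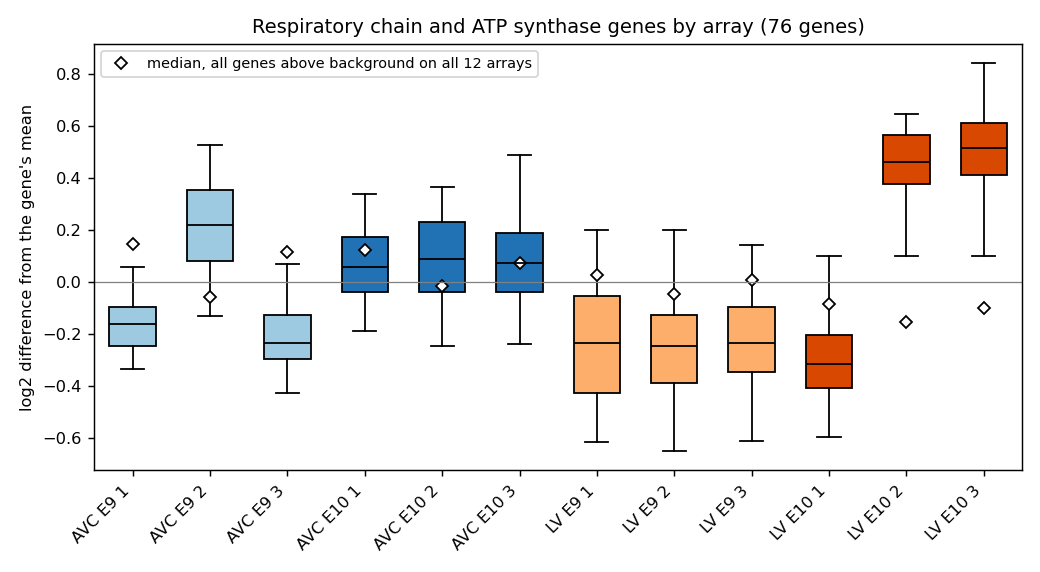
Log2 difference of each of the 76 genes from its own mean over the 12 arrays, by array and coloured by group; boxes are quartiles with the median as a line, whiskers run from the 5th to the 95th percentile over genes, and diamonds mark the median of the 8340 genes above background. LV E10 replicates 2 and 3 have medians of 0.46 and 0.52, while LV E10 replicate 1 lies at -0.31 beside the LV E9 arrays.

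Other markers were read on the same arrays. The median deviation of 49 cytosolic ribosomal protein genes was 0.12, 0.11 and 0.12 on LV E10 replicates 1, 2 and 3, where replicate 1 lay with its group mates. The median over the 9 measured myocardial markers was 0.01, -0.03 and -0.09. Of 6 endoderm and epithelial markers, Krt8, Krt18 and Ttr were above background on all arrays, and their summed intensity was 3513 on LV E10 replicate 1, against 1138 and 990 on replicates 2 and 3, and it ran from 1502 to 3268 on LV E9, 3179 to 4832 on AVC E9 and 1051 to 2517 on AVC E10. Ttr, the transthyretin gene of visceral endoderm and liver, read 1826, 314 and 79.6 on the LV E10 arrays, Afp, alpha-fetoprotein, read 527, 114 and 9.71, and the defining epithelial marker Epcam was above background on 0 arrays. The summed intensity of 5 erythroid markers was 164207, 129187 and 108898 on LV E10 and ran from 104398 to 156671 on the other arrays. Of 6 endothelial and endocardial markers, 5 were above background on all arrays and the defining marker Kdr on 0. Their summed intensity ran from 2276 to 3474 on the E9 arrays and from 4354 to 6121 on the E10 arrays, so it was higher at E10 in both tissues. Pecam1, an endothelial adhesion gene, was higher at E10 in the LV with all arrays (1.23 ± 0.24 SE on the log2 scale, adjusted p = 0.0437), and Pecam1, Tek and Emcn were higher at E10 over both tissues. The part of these cell types in the results was not tested. The labelled tissues carried their markers: of 4 ventricular chamber genes, Nppa and Nppb, the natriuretic peptide genes, were lower in the AVC over both ages, and 5 of 6 mesenchyme markers were higher there.

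Between E9 and E10 the LV arrays showed the widest difference, with most subunits of every complex higher at E10. The median log2 difference over the 76 genes was 0.49 in the LV, against -0.11 for all genes above background, and 72 of the 76 genes were above 0, against 40.4% of all such genes. In the AVC the median was 0.15, against -0.01, and 65 of 76 were above 0, against 48.3%. The AVC median was smaller than 0.29, the SD of the per-array median over replicates. With all 12 arrays, 2 of the 83 genes were called in the LV, where 2.37% of all genes were called: Cox8b was higher and Uqcrq was lower. None of the 83 was called in the AVC, where 0.551% of all genes were called. At an unadjusted p under 0.05, limma gave 30 of 83 in the LV, against 19.6% of all genes, and 1 of 83 in the AVC, against 12.5%. The E10 arrays were all above the E9 arrays for 17 of the 76 genes in the LV (22.4%, against 11.6% of all genes above background) and for 7 of 76 in the AVC (against 14.3%).

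The LV count depended on 1 array. LV E10 replicate 1 was set aside because these genes were low on it, so the counts without it favour them over all genes. Without LV E10 replicate 1, 57 of the 83 genes were called in the LV, where 13.8% of all genes were called. Of the 76 genes, 54 rose, where 11.9% of genes above background rose, and 1 fell, where 13.5% fell. Their median log2 difference was 0.73. Without both LV E10 replicate 1 and AVC E9 replicate 2, 64 of 83 genes were called in the LV, where 19.2% of all genes were, and 15 in the AVC, where 6.51% were. LV E10 replicates 2 and 3 were above all 3 LV E9 arrays for 68 of the 76 genes (89.5%, against 27% of all genes above background). LV E10 replicate 1 was above all 3 LV E9 arrays for 18 of them (23.7%, against 28.5%) and below all 3 for 34 (44.7%, against 42.7%).

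Complex IV had the highest median in the LV. The 13 complex IV genes had a median log2 difference of 0.69 with all arrays and 0.94 without LV E10 replicate 1. In the latter fit 9 of 13 rose, against 11.9% of all genes above background. Cox7a2l, a gene of the COX7A family whose product joins complexes III and IV, had intensities of 2857, 2801 and 2420 on LV E9 and 2597, 5850 and 6656 on LV E10. Only LV E10 replicate 1 lay within the E9 range. Its log2 difference was 0.79 ± 0.33 (SE, adjusted p = 0.231), and 1.22 ± 0.19 (adjusted p = 0.0095) without that array. Cox6b1, the common form of a subunit at the dimer contact, read 9332, 9922 and 9609 on LV E9 and 11738, 18285 and 18705 on LV E10, so the groups did not overlap. Ndufa4, first named as a complex I subunit and now assigned to complex IV, read 7527, 7360 and 8146 on LV E9 and 6710, 11069 and 12462 on LV E10, with a log2 difference of 0.35 ± 0.24 (SE, adjusted p = 0.474). Cox5a, a matrix-facing subunit, read 12341, 11276 and 10435 on LV E9 and 11819, 16824 and 13827 on LV E10, and, of the 13 complex IV genes above background on all arrays, had the lowest difference over both tissues, 0.11 (adjusted p = 0.613). The testis counterpart of Cox6b1, Cox6b2, was dim and scattered, from 125 to 270 on LV E9 and from 194 to 594 on LV E10.

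All 34 complex I genes above background had a log2 difference above 0 in the LV, with a median of 0.50. Without LV E10 replicate 1, 29 of 34 rose, against 11.9% of all genes above background, with a median of 0.76. Ndufa3, a small accessory subunit, read 2910, 2910 and 2961 on LV E9 and 3505, 6669 and 6554 on LV E10. The groups did not overlap, and the difference of 0.87 ± 0.28 (SE) had an adjusted p of 0.139, or 0.0169 with a difference of 1.18 without LV E10 replicate 1. The 28 accessory subunits had a median of 0.51 and the 5 core subunits, most of which carry redox centres, a median of 0.30. The 7 assembly factors had a median of 0.19, and 1 of 7 rose without LV E10 replicate 1, near the 11.9% of all genes above background. Over both tissues the assembly factors ran from -0.30 ± 0.11 for Ndufaf4 (SE, adjusted p = 0.132) to 0.31 for Ndufaf8 (adjusted p = 0.392). The complex I subunits ran from 0.07 for Ndufb10 (adjusted p = 0.826) to 0.63 for Ndufb4 (adjusted p = 0.122), both of the membrane arm.

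ATP synthase genes were split by part. The 7 genes of the membrane part had a median log2 difference of 0.65 in the LV, the 4 of the stalk 0.56 and the 5 of the catalytic F1 part 0.30. Without LV E10 replicate 1, 11 of the 16 rose, against 11.9% of all genes above background. Atp5h, a stalk subunit, read 5704, 5479 and 5663 on LV E9 and 6042, 10037 and 10814 on LV E10, so the groups did not overlap. Its log2 difference was 0.63 ± 0.21 (SE, adjusted p = 0.148), and 0.89 ± 0.13 (adjusted p = 0.00738) without LV E10 replicate 1. The catalytic beta subunit gene Atp5b read 27867, 34132 and 28319 on LV E9 and 33520, 27419 and 24418 on LV E10. Atp5b and Atp5g3, one of the subunit c genes, were over 0.5 of the array maximum on every array, near the top of the scale. Over both tissues Atp5b had the lowest ATP synthase difference, -0.06 (adjusted p = 0.804), and Atp5l, a membrane subunit, the highest, 0.47 (adjusted p = 0.147). Atp5g2, another subunit c gene, read 1343, 1487 and 1545 on LV E9 and 1534, 2526 and 3201 on LV E10. The alpha subunit gene Atp5a1 read 5243, 4933 and 5593 on LV E9 and 5036, 6988 and 7270 on LV E10. Of 31 other probes, of 24 of the genes, that were above background on all arrays, 1, of Atp5a1, had the sign opposite to the chosen probe for age in the LV, 9 had for age in the AVC, 7 for AVC against LV at E9 and 8 at E10.

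**Figure D2:**
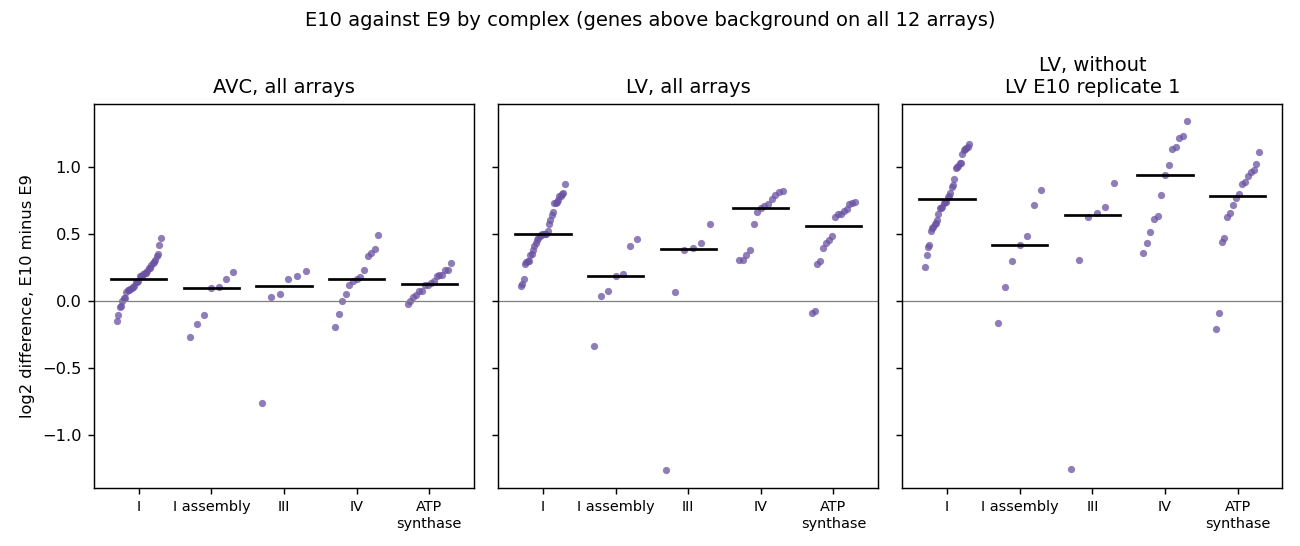
Log2 difference between E10 and E9 for each of the 76 genes above background, grouped by complex, in the AVC with all arrays, in the LV with all arrays and in the LV without LV E10 replicate 1; points are genes in order of value and bars are medians. Complex IV has the highest median in the LV in both LV panels, and Uqcrq lies alone at the bottom of complex III.

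Uqcrq, which encodes the ubiquinone-binding subunit 8 of complex III (probe ILMN_1252263), went the other way. This probe was dim, with a mean of 227 over the 12 arrays. The chosen probes of the other complex III genes above background on all arrays had means from 4494 to 17242. The second Uqcrq probe was above background on 0 arrays, so the result rests on 1 dim probe. It read 253, 365 and 267 on AVC E9 and 224, 153 and 147 on AVC E10. On LV E9 it read 242, 313 and 373, and on LV E10 125, 111 and 146. The E9 and E10 arrays did not overlap in either tissue, and LV E10 replicate 1 lay between its group mates. It fell by 1.26 ± 0.23 on the log2 scale in the LV (SE, adjusted p = 0.037) and by 1.01 ± 0.16 over both tissues (adjusted p = 0.0116). Over both tissues, 2 of the 83 genes were called, where 8.1% of all genes were called, and the other was Cox8b. Without LV E10 replicate 1, 49 were called, where 18% of all genes were. The core subunit gene Uqcrc1 read 5244, 4468 and 4881 on LV E9 and 3682, 5929 and 6052 on LV E10, and the hinge protein gene Uqcrh 11696, 11863 and 10986 against 11125, 21715 and 20788. LV E10 replicate 1 was the lowest of the 6 LV arrays for Uqcrc1 and within the LV E9 range for Uqcrh, which had the highest complex III difference over both tissues, 0.40 (adjusted p = 0.224).

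Cox8b, the muscle form of the smallest complex IV subunit (probe ILMN_2727520), had the widest range of the genes called. It read 74.4, 97.8 and 64.0 on AVC E9 and 213, 225 and 223 on AVC E10. On LV E9 it read 48.3, 25.7 and 47.4, close to background, and on LV E10 174, 1104 and 1275. The ages did not overlap in either tissue, and LV E10 replicate 1 lay between the LV E9 arrays and its group mates. On LV E9, 2 of 3 arrays were above background, so the size of the LV fold is uncertain. In the LV it was 16.1-fold higher at E10 (log2 difference 4.01 ± 0.68 SE, adjusted p = 0.032), and 30.5-fold higher without LV E10 replicate 1 (adjusted p = 0.000447). In the AVC it was 2.84-fold higher (adjusted p = 0.416, or 0.0454 without that array). The array left out is an LV array, so the AVC difference itself was the same in both fits. Only the spread estimate shared by the 4 groups, and with it the p-values, changed. The tissue by age interaction, which asks whether the age difference was unequal in the tissues, was -2.50 ± 0.96 (adjusted p = 0.937) with all arrays and -3.42 ± 0.39 (adjusted p = 0.0267) without LV E10 replicate 1. None of the 83 genes was called for the interaction with all arrays, where 0.0315% of all genes were called, and 1 of 83 had an unadjusted p under 0.05 by limma, against 4.71%.

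The promoter of Cox8b is shown beside those of Cox7a1, another muscle form, and of Cox6a1, a common form, because the muscle and common forms are compared next. Each is the stretch of 250 bases before the RefSeq gene start, written 5′ to 3′ on the gene's strand in build GRCm38.p6. Capitals mark matches, on either strand, to the motifs searched.

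Cox8b (chr7:140900447-140900696, minus strand): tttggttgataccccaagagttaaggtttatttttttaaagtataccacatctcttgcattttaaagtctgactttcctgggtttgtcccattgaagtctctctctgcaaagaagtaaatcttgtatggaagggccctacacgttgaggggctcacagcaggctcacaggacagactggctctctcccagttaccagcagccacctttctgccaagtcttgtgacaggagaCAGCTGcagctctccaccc

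Cox7a1 (chr7:30183921-30184170, plus strand): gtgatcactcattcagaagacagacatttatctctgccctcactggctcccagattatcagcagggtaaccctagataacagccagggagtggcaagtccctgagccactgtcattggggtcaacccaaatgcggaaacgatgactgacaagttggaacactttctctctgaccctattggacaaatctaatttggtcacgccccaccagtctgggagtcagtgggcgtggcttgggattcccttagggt

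Cox6a1 (chr5:115348959-115349208, minus strand): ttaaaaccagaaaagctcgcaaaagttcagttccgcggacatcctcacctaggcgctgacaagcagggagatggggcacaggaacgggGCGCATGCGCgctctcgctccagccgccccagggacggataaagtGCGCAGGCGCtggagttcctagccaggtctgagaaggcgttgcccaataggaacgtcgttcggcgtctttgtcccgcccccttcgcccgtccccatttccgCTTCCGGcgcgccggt

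The motifs were the NRF1 core (GCGCA, any base, GCGC), the ETS site CCGGAAG, the estrogen-related receptor element AAGGTCA, the E-box CAGCTG, the MEF2 site (CTA, 4 bases of any kind, TAG) and the TATA box TATAAA. The Cox8b stretch held 1 E-box, the Cox7a1 stretch held none of the 6 motifs, and the Cox6a1 stretch held 2 NRF1 cores and 1 ETS site, which do not overlap. The window of Cox7a2, the common partner of Cox7a1, held none of the 6 motifs either. Of the 83 genes, 69 had an entry in the RefSeq promoter table, with 74 windows of 300 bases that include 50 bases after the start. The NRF1 core was in 23% of these windows, against 4.6% of all 32851 windows, and the ETS site in 21.6%, against 8.86%. The receptor element was in 8.11%, against 4.72%, the E-box in 6.76%, against 16.3%, the MEF2 site in 2.7%, against 3.69%, and the TATA box in 12.2%, against 13.6%. These matches describe letters in the windows.

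Between the tissues the medians were small. With all arrays, most of the genes were slightly higher in the AVC at E9 and lower there at E10. The median log2 difference, AVC minus LV, was 0.17 at E9, against 0.06 for all genes above background, and -0.17 at E10, against 0.16. Both were smaller in size than 0.29, the SD of the per-array median over replicates. At E9 62 of 76 genes were above 0, against 59.1% of all genes, and at E10 10 of 76 were, against 69.5%. These genes are not replicates of the 3 arrays in a group. Without LV E10 replicate 1 and AVC E9 replicate 2 these counts were 45 of 76 at E9, against 69.8%, and 4 of 76 at E10, against 68.8%. No gene of the 83 was called at E9, where 1.02% of all genes were called, or at E10, where 2.3% were. At an unadjusted p under 0.05, limma gave 4 of 83 at E9, against 11.5%, and 4 of 83 at E10, against 13.9%. All AVC arrays were above all LV arrays for 18 of 76 genes at E9 (against 19% of all genes above background) and for 1 of 76 at E10 (against 21.1%). They were below all LV arrays for 4 of 76 at E9 (against 7.96%) and for 4 of 76 at E10 (against 3.41%). LV E10 was the highest of the 4 group means for 62 of the 76 genes, against 1130 of the 8340, and LV E9 the lowest for 61, against 2567.

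Without LV E10 replicate 1 the median at E10 was -0.41 and 12 of 83 genes were called, where 3.83% of all genes were called. In that fit Cox8b, Cox4i1, Atp5h, Uqcrc1 and the complex I genes Ndufs7, Ndufv1, Ndufv2, Ndufv3, Ndufa13, Ndufab1 and Ndufb8 were lower in the AVC and Cox4i2 was higher. Ndufs7, a core subunit with an iron-sulfur cluster, read 5229, 4823 and 5037 on AVC E10 and 4621, 7949 and 8075 on LV E10, with a difference of -0.67 ± 0.08 (SE, adjusted p = 0.00978) without LV E10 replicate 1 and -0.41 ± 0.20 (adjusted p = 0.417) with it. Without AVC E9 replicate 2 as well, the median at E9 was 0.04 and 32 of 83 genes were called at E10, where 8.42% of all genes were.

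**Figure D3:**
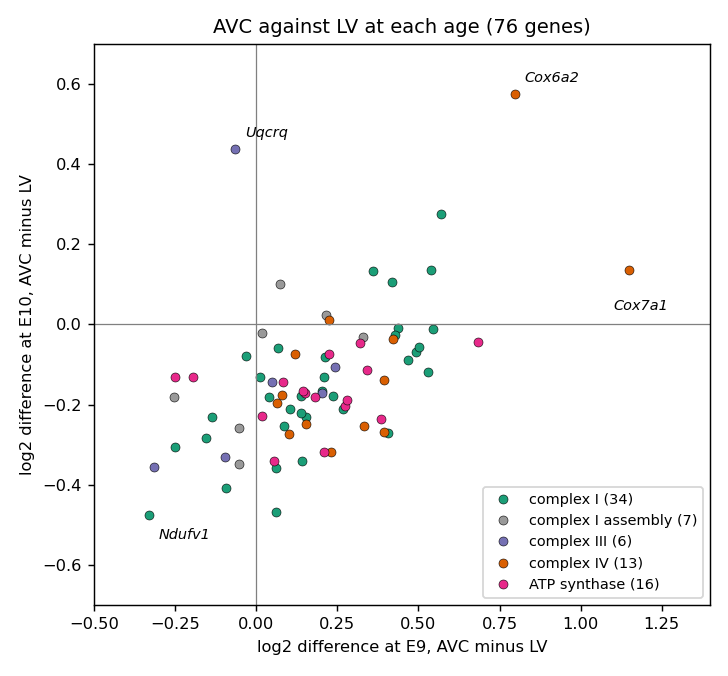
Log2 difference between AVC and LV at E9 (horizontal) and at E10 (vertical) for the 76 genes above background, coloured by complex with the number of genes in each. With all arrays, 62 points lie right of 0 at E9 and 66 below 0 at E10, and Cox6a2 and Cox7a1 are farthest to the right.

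Ndufv1, which encodes the flavoprotein that takes electrons from NADH (probe ILMN_2702704), was the 1 gene of the 83 called over both ages with all arrays, where 5.47% of all genes were called. It read 7145, 6307 and 6805 on AVC E9 and 9376, 8149 and 7976 on LV E9. On AVC E10 it read 6580, 7229 and 8744, and on LV E10 8742, 11138 and 11484. The tissues did not overlap at E9, and at E10 they met only where the highest AVC array reached the lowest LV array, LV E10 replicate 1. The AVC was lower by a log2 difference of -0.40 ± 0.10 (SE, adjusted p = 0.0478), and this call was lost without each of 10 of the 12 arrays. Uqcrc1 had -0.34 ± 0.13 (adjusted p = 0.195), the lowest value of the 6 complex III genes above background on all arrays, and Uqcrq had the highest, 0.19 (adjusted p = 0.668). Ndufa1, a membrane subunit, had the highest complex I value, 0.42 ± 0.14 (adjusted p = 0.133). In ATP synthase the values ran from -0.19 for Atp5g3 (adjusted p = 0.401) to 0.32 for Atp5md (adjusted p = 0.667), and in the assembly factors from -0.22 for Ndufaf4 (adjusted p = 0.354) to 0.15 for Ndufaf3 (adjusted p = 0.833).

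The muscle and common forms of complex IV subunits were compared within each array, as the log2 intensity of one form minus that of the other. Since probes differ in brightness, only the difference of this value between tissues has a meaning. Tissue labels were permuted within age, which gave 400 arrangements, and p-values were adjusted over the 3 pairs measured. The pair of Cox8b with Cox8a was not analysed here.

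Cox6a2, the muscle form of subunit VIa, read 5416, 7336 and 4492 on AVC E9 and 3867, 2790 and 3152 on LV E9. On AVC E10 it read 8587, 7340 and 7855, and on LV E10 2593, 7212 and 7994. The tissues did not overlap at E9 and overlapped at E10. Its common partner Cox6a1 read 9085, 10921 and 7894 on AVC E9 and 7150, 8542 and 6430 on LV E9, which overlap, and from 9691 to 16816 on LV E10, around the AVC E10 range of 9856 to 12684. Relative to Cox6a1, Cox6a2 was higher in the AVC by 0.65 on the log2 scale (two-sided exact permutation p = 0.015, adjusted p = 0.015). The difference was 0.49 without LV E10 replicate 1. Alone, Cox6a2 was not called over both ages (0.69 ± 0.28, adjusted p = 0.245).

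Cox7a1, the muscle form of subunit VIIa, read 2860, 5400 and 2452 on AVC E9 and 1812, 1305 and 1467 on LV E9. On AVC E10 it read 3877, 2789 and 2350, and on LV E10 1296, 4031 and 3661. Again the tissues overlapped only at E10. The common form Cox7a2 read 1410, 2039 and 1284 on AVC E9 and 1164, 1116 and 1251 on LV E9, with no overlap, and 1662, 1301 and 1722 on AVC E10 against 954, 2368 and 2885 on LV E10. Relative to Cox7a2, Cox7a1 was higher in the AVC by 0.58 (two-sided exact permutation p = 0.015, adjusted p = 0.015). With LV E10 replicate 1 and AVC E9 replicate 2 both left out, the differences were 0.46 for Cox6a2 and 0.49 for Cox7a1, each with an adjusted exact p of 0.06.

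Cox4i2, a form of subunit IV known from lung and oxygen-sensing cells, was dim. It read 69.9, 53.8 and 33.5 on AVC E9, 72.4, 36.0 and 58.9 on AVC E10, 30.4, 15 and 27.4 on LV E9, and 17.9, 7.32 and 0.0252 on LV E10. It was above background on all 6 AVC arrays and not well above background on any LV E10 array, so at E10 only a bound can be given, at least 2.14-fold higher in the AVC (adjusted p = 0.117). The common form Cox4i1 read 12376, 14911 and 12681 on AVC E9, 14106, 14403 and 14787 on AVC E10, 12779, 12084 and 13271 on LV E9, and 11593, 19021 and 20461 on LV E10. Since 5 of the 6 LV values of Cox4i2 were not well above background, no difference relative to Cox4i1 is given. The pair still counts among the 3 pairs over which p-values were adjusted.

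**Figure D4:**
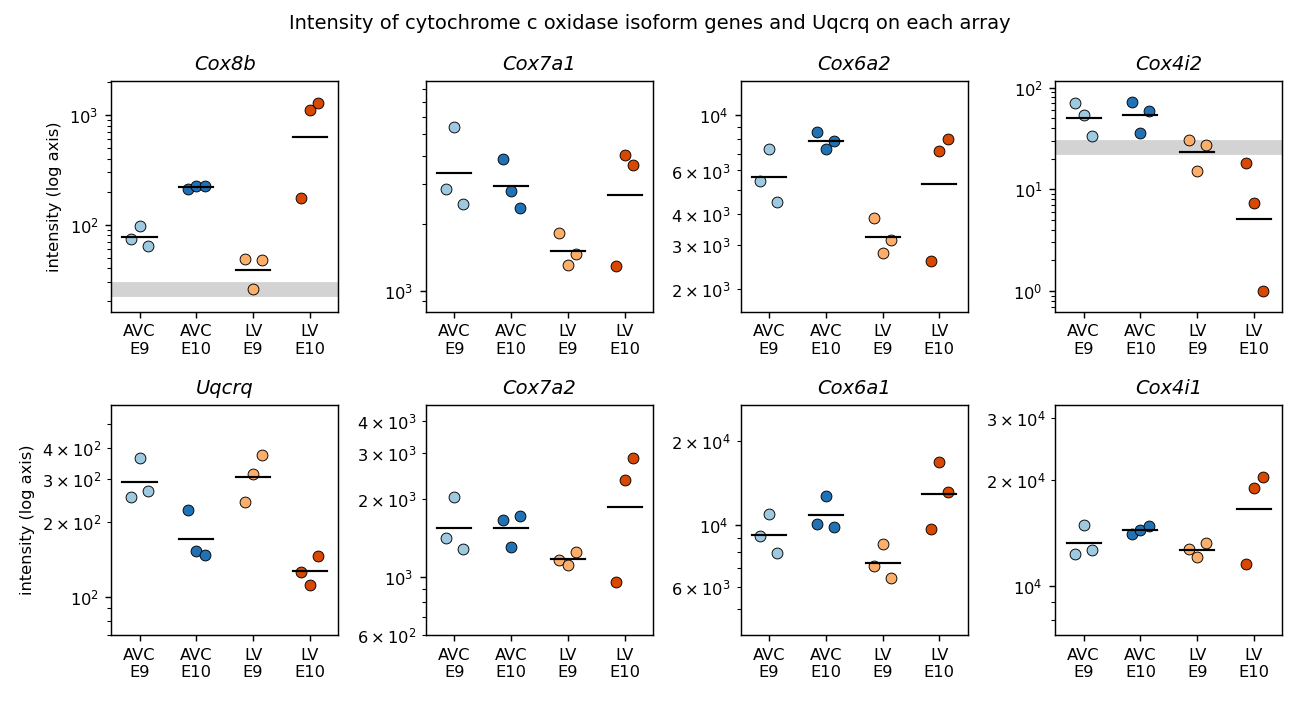
Intensity on a log axis of the complex IV isoform genes and of Uqcrq on each array, by group; points are arrays from replicate 1 at the left to replicate 3 at the right, bars are geometric means, values under 1 are drawn at 1 and the grey band is the range of background limits, 22.4 to 29.6. LV E10 replicate 1 lies below its group mates for Cox8b, Cox7a1, Cox6a2, Cox7a2, Cox6a1 and Cox4i1 and between them for Uqcrq.

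Genes of the same pathway outside the prefixes were read from fixed lists. Of 10 complex II (succinate dehydrogenase) and cytochrome genes, none was called in any of the 7 contrasts with all arrays. This list also held Cyc1, which encodes cytochrome c1 of complex III and lies outside the prefixes. Sdhb, the iron-sulfur subunit, read 2890, 2368 and 2253 on LV E9 and 2087, 5882 and 6071 on LV E10. Without LV E10 replicate 1, 4 of 10, Sdhb, Sdhc, Sdhaf1 and Sdhaf4, rose in the LV, where 13.8% of all genes were called. Of 33 assembly factors, 5 were lower at E10 over both tissues, among them Sco1, a copper chaperone of complex IV (-0.31 ± 0.08 SE, adjusted p = 0.0418), and 0 were higher. In that contrast 8.1% of all genes were called. The balance turned without LV E10 replicate 1, with 9 higher and 4 lower over both tissues and 11 higher and 1 lower in the LV. The shares of all genes called there were 18% over both tissues and 13.8% in the LV. Over both ages 3 assembly factors, Atpaf2, Ecsit and Foxred1, were lower in the AVC, where 5.47% of all genes were called. Of 22 biogenesis genes, in the 7 contrasts with all arrays, only Ppargc1a, a coactivator of mitochondrial gene expression, was called. It was higher in the AVC over both ages (1.21 ± 0.24 SE, adjusted p = 0.023), where 5.47% of all genes were called. Of 24 carrier, import and energy transfer genes, 1 was called at each age between the tissues. Slc25a13, the aspartate-glutamate carrier, was lower in the AVC at E10 (-1.12 ± 0.21 SE, adjusted p = 0.0369), where 2.3% of all genes were called. Phb2, a prohibitin, was lower in the AVC at E9 (-0.41 ± 0.07 SE, adjusted p = 0.0366), where 1.02% were called. Slc25a5, the adenine nucleotide carrier, and those 2 genes were lower in the AVC over both ages, where 5.47% of all genes were called. Tomm40, Timm44, Ckb and Phb2 were lower at E10 over both tissues with all arrays, where 0 of the 24 were higher and 8.1% of all genes were called. In the fit without LV E10 replicate 1, 4 of the 24 were higher and 4 lower over both tissues, where 18% of all genes were called.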

How the data were processed

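The values deposited by the authors are probe intensities on a linear scale from Illumina Mouse WG-6 v2 arrays, background subtracted and scaled to a mean of 386 on all 12 arrays, and not quantile normalized. The program that made them is not named in the labels or methods, and the study's methods name GeneSpring GX 11.0. Of 45281 probes, 34885 had 1 gene symbol in the platform annotation, 18 had several and 10378 had none; of several probes for 1 gene, the brightest on average stood for it, which left 19057 genes. Values under 1 (36.8%) were set to 1 before log2, which lowers the precision of dim genes. The 4 groups were fitted together with limma 3.58.1 in R 4.3.3 without a block, in 7 contrasts. P-values are two-sided and Benjamini-Hochberg adjusted. The fit was tested on simulated data in which genes varied independently. That test cannot speak to shifts of many genes together on 1 array. Arrays give no counts, and their number limits the precision. No coordinates come from the files; promoters are those of RefSeq.

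Members, lists, motifs and the rule for named genes were chosen with earlier results of these data known. Genes were named when called in a contrast, as isoform genes, as the highest or lowest of a complex over both ages or tissues, or as core subunits. Ndufa3, Atp5h, Ndufs7 and Sdhb were chosen as examples after their values were seen. Alternatives were other scalings, floors, probe rules, filters, a replicate block, the methods' t-test and leaving arrays out. RefSeq genes with these prefixes but no probe in the annotation used, among them Cox8a, Cox7c, Uqcrb, Ndufs5, Atp5g1 and Ndufa4l2, were not analysed here. The entry Ndufs5-ps is a pseudogene and was kept as a member by its prefix.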

Additional observations from a re-analysis of the deposited data

How the results depend on the processing

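Leaving out each array in turn, the median differences over the 76 genes ran from 0.34 to 0.73 for E10 against E9 in the LV, 0.06 to 0.29 in the AVC, 0.04 to 0.26 for AVC against LV at E9, -0.41 to -0.01 at E10 and, with no settled sign, -0.11 to 0.07 over both ages. With the median of detected genes made equal on every array, they were 0.59 in the LV, 0.13 in the AVC, 0.07 at E9, -0.38 at E10 and -0.15 over both ages. The counts of members called depended on single arrays. Leaving out each array in turn gave 0 to 12 members called for AVC against LV at E10 and 0 to 57 for E10 against E9 in the LV. The range was 2 to 49 for E10 against E9 over both tissues. Each was highest without LV E10 replicate 1, where 3.83%, 13.8% and 18% of all genes were called. The ranges were 0 to 2 for E10 against E9 in the AVC, 0 to 1 for the interaction and 0 to 7 for AVC against LV over both ages. These were also highest without LV E10 replicate 1. Without AVC E9 replicate 2 the count over both tissues was 8. The shares of all genes for these last counts are not given here, so they are not read as a trait of these genes. The isoform differences ran from 0.49 to 0.79 for Cox6a2 and 0.51 to 0.70 for Cox7a1. None is given for Cox4i2, whose LV values were mostly not above background. Without both LV E10 replicate 1 and AVC E9 replicate 2, the counts of 83 were 32 at E10, 15 for age in the AVC, 64 in the LV, 2 for the interaction, 22 over both ages and 62 over both tissues, against 1604, 1240, 3652, 67, 2170 and 4557 of all 19057 genes, and the isoform differences were 0.46 for Cox6a2 and 0.49 for Cox7a1. Without the first replicates of LV E10 and AVC E10 they were 10, 3, 51, 1, 7 and 41, against 690, 999, 2676, 118, 1330 and 3486 genes, with differences of 0.44 for Cox6a2, 0.49 for Cox7a1 and 2.79 for Cox4i2, none past the threshold. Quantile normalization gave 1 at E10, 1 in the LV, 2 over both ages and 4 over both tissues, against 268, 509, 743 and 1675 genes; an offset of 50 gave 1, 7, 2 and 12, against 797, 1233, 1452 and 2606; equal medians gave 1 in the LV, against 417. Testing only detected genes gave 7 over both tissues, against 2093. In the LV, the methods' t-test gave 0 at their thresholds and 0 after Benjamini-Hochberg, against 192 and 26 genes. With the replicate block the counts were 0 over both ages and 5 over both tissues, against 1035 and 1828 genes; arrays with the same number correlated from -0.37 to 0.52 over 18 pairs, so the numbers were not taken to pair the samples. The cause of these changes was not tested. Cox8b and Uqcrq over both tissues were called under all 21 alternatives each. In the LV, Cox8b lost its call under 8 alternatives and Uqcrq under 11, and Ndufv1 lost its call under 12. The comparison of Cox8b with Cox8a was not run because Cox8a has no probe in the annotation used.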
